A study of Mus musculus with 4 samples.

Results

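The imprinted *Peg3* domain on proximal mouse chromosome 7 was described from 3 genes, *Peg3*, *Usp29* and *Zim1*, which were named for their place in the domain and found by symbol among the 37310 genes of a deposited count table. RNA had been sequenced from HATX mouse embryonic stem cells (mESCs), which the study describes as haploid and which carry a doxycycline-inducible transgene of *Xist*, the RNA that silences an X chromosome. One group was the line labelled HATX WT (2 libraries), and the other was Clone 2 of the line labelled SpenKO (2 libraries), in which *Spen*, the gene of an RNA-binding repressor, has been deleted in large part or in full. Both groups share the *Xist* transgene and a mixed genomic background, and were grown on gelatin in serum with LIF, and the labels state no treatment. Each group is 1 line, and the KO-labelled group is 1 clone, so the loss of *Spen* and other differences between the lines cannot be told apart. Nothing says that replicates came from separate cultures, so p-values measure only the spread between these libraries.

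Imprinted genes are transcribed mainly from the copy inherited from 1 parent, as set by DNA methylation that is laid down in the germ line and then kept through cell division. In the *Peg3* domain a methylated region covers the *Peg3* promoter and first intron on the maternal copy. *Peg3*, which encodes a large zinc finger protein linked to maternal behaviour, growth and cell death signalling, and *Usp29*, which encodes a ubiquitin-specific protease, are transcribed in opposite directions from the paternal copy. *Zim1* encodes another zinc finger protein and is known as a maternally expressed gene. The parental copies were not told apart in these data. A haploid cell, as the study describes this line, would hold a copy of the domain from only 1 parent.

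The stretch from which the promoter of *Peg3* and that of *Usp29* face away from each other is shown first, because these neighbours share it, and *Peg3* fell while *Usp29* did not pass the test. The first line lies between the GENCODE start of *Peg3* and the RefSeq start of *Usp29* (chr7:6683133-6683293, mm9, minus strand), and the second lies just before the start of *Zim1* (chr7:6649162-6649393, mm9, minus strand). Capitals mark CpG, the dinucleotide at which mammalian DNA is methylated.
Peg3-Usp29 interval: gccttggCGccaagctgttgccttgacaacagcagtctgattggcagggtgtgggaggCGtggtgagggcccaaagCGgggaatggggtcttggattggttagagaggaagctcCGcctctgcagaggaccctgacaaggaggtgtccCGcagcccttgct
Zim1 upstream: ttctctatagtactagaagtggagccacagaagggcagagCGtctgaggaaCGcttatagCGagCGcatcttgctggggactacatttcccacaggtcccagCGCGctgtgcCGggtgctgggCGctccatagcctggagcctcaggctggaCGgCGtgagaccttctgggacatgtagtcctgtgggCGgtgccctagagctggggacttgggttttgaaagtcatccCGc
The first stretch of 161 bases held 5 CpG, and the second of 232 bases held 12 CpG. In RefSeq promoter windows of 300 bases (GRCm38.p6, each with 1 exact match in mm9), *Peg3* had 13 CpG, *Usp29* 17 and *Zim1* 20. Fewer CpG were found in 62.1%, 68.6% and 73.5% of all 32851 promoter windows, respectively.

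The first intron of *Peg3* (chr7:6679286-6682968, 3683 bases) is shown next because it carries a run of letters read by YY1, a zinc finger factor known to bind there. The letters CCATNTT, the core of the YY1 motif, were searched on both strands. They occurred 14 times in this intron, and all 14 lay on the strand of *Peg3*. In 38466 windows of the same length along chromosome 7 the median was 3 matches, 95.4% of windows held at least 1, and 7 windows (0.0182%) held at least as many. The stretch with 3 matches closest together (chr7:6680544-6680693, minus strand) is given in the first line below. The 2 matches nearest to the *Peg3* start and the 1 farthest from it follow with 6 flanking bases on each side, at 826, 932 and 3299 bases from it. Capitals mark the searched letters.
Peg3 intron stretch: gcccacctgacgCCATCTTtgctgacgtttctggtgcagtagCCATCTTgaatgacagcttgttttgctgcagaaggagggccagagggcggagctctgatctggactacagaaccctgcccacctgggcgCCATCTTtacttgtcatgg
Match 1: ttggcgCCATCTTggaggg
Match 2: ttggcgCCATCTTgaaatg
Match 14: gtgcctCCATCTTacatcc
Of the 14 matches, 12 had C at the free position and 10 were preceded by the letters CG, so that a CpG adjoined the core. The 3 promoter windows held no match, and 16.1% of all promoter windows held at least 1. The letters TGCCGC, which the imprint-keeping factor ZFP57 reads when methylated, occurred 8 times in the intron on both strands together. The median over the chromosome 7 windows was 0, and 0.013% of them held at least as many. These letters contain a CpG, and the intron was rich in CpG, with 101 against a median of 27 and fewer in 98.2% of windows. Of the 14 CCATNTT matches, 0 overlapped a TGCCGC match. The *Zim1* window held 1 such match, outside the stretch printed above, and the *Peg3* and *Usp29* windows held none, while 11.6% of all promoter windows held at least 1. Neither binding nor methylation was measured here.

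Total counts ranged from 36667685 to 61908422 per library, lower in both WT libraries. The targeted gene *Spen* had 2803 and 2798 counts in WT and 8955 and 7976 in the KO-labelled libraries, a log2 fold change of 1.05 ± 0.21 (SE), so the gene-level count is no check of the deletion, and directions below follow the labels. Markers of mESCs (7 genes, among them *Pou5f1* and *Nanog*) summed to 3792 to 3798 CPM (counts scaled to a common library total) in WT and 4002 to 4073 in the KO-labelled libraries. The term called is used for a gene that changed at least 2-fold with a DESeq2 adjusted p under 0.001. Of the 17710 genes given an adjusted p, 4.51% were called, 3.15% lower and 1.36% higher in the KO-labelled libraries. By the adjusted p alone, 32.3% passed at 0.05, 15.8% lower and 16.4% higher.

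*Peg3* was nearly lost from the KO-labelled libraries, *Zim1* was lower by about 11-fold at very low counts, and *Usp29* did not pass the test. *Peg3* (ENSMUSG00000002265.8) codes for protein and lies at chr7:6656603-6683132 (minus strand), with 13314 exonic bases in 10 blocks. Its counts were 1703 and 2288 in WT but 16 and 18 in the KO-labelled libraries. Both KO-labelled libraries lay far below both WT libraries, and the 2 libraries of each group were close together. Scaled for depth, these are 2258 and 2492 normalised counts in WT, against 13.9 and 14.1. The means were 2375 ± 165 and 14.0 ± 0.109 (SD, n = 2), so the KO-labelled mean was 0.59% of the WT mean. On the log2 scale the difference was -7.41 ± 0.27 (SE, DESeq2 adjusted p = 1.61e-158), and 9 of the 17710 tested genes had lower values. Against the 3.15% of all genes called lower, *Peg3* was the 1 of the 3 genes that was called. The remaining counts were above the floor of 3 counts set for counting error, so *Peg3* reads were few but not at 0. In bulk RNA, fewer expressing cells and less RNA per cell cannot be told apart.

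*Zim1* (ENSMUSG00000002266.9), next to *Peg3* on the same strand at chr7:6628154-6649161, starts 7.44 kb beyond the end of *Peg3*. It had 16 and 22 counts in WT and 3 and 2 counts in the KO-labelled libraries. The groups did not overlap, and both KO-labelled libraries were at or under the floor of 3 counts. The ratio of depth-scaled sums, WT over KO-labelled, was 11, with an exact 95% interval of 4.33 to 35.9 that covers counting error only. The log2 fold change was -3.45 ± 1.10 (SE), with an adjusted p of 0.00754 in DESeq2, which passed at 0.05 (as 15.8% of genes did in this direction) but missed the 0.001 of the call. In edgeR it was 0.00119, which also missed. *Zim1* is known as maternally and *Peg3* as paternally expressed, and both were lower in the KO-labelled libraries. In a haploid cell both would lie on the same parental copy, so parental copies were not compared.

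*Usp29* (ENSMUSG00000051527.6), on the plus strand at chr7:6913871-6916480, is annotated in GENCODE vM1 as 1 block of 2610 bases, of which 99.9% are coding. That block lies 231 kb from the *Peg3* start, so reads over exons of *Usp29* near the shared promoter are not part of its count. It had 64 and 63 counts in WT and 108 and 153 in the KO-labelled libraries, which were sequenced more deeply. After scaling, the values were 84.9 and 68.6 in WT and 94.0 and 119.7 in the KO-labelled libraries, which did not overlap but nearly met. The group means were 76.7 ± 11.5 in WT and 106.9 ± 18.2 in KO-labelled libraries (SD, n = 2). This gave a log2 fold change of 0.48 ± 0.36 (SE, DESeq2 adjusted p = 0.349), with a 95% interval from -0.23 to 1.2. A rise within this interval cannot be told from no difference, but a fall of the size of that of *Peg3*, whose interval ran from -7.94 to -6.87, lay far outside this interval.

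**Figure D1:**
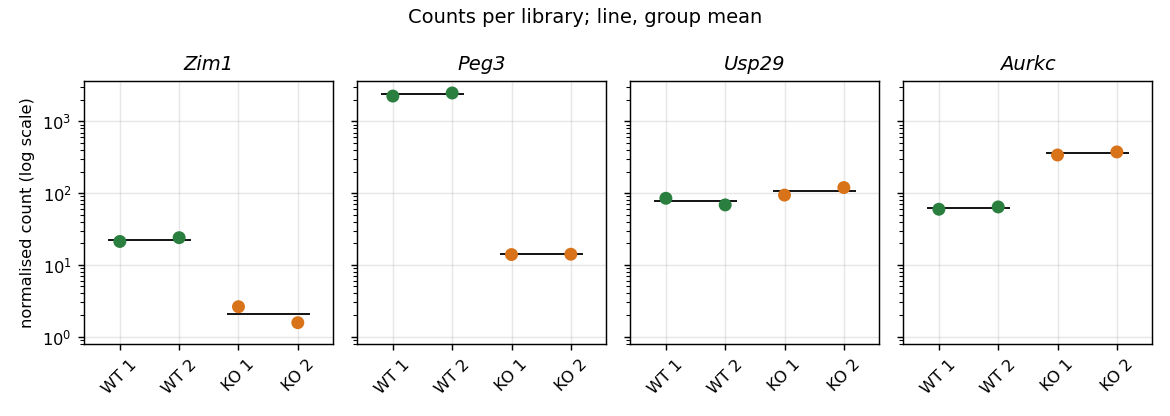
Normalised counts (log axis) in each of the 4 libraries for the 3 genes and for *Aurkc*, the next annotated gene beyond *Usp29*, with green points for WT, orange points for KO-labelled libraries and lines for group means. *Peg3* drops from 2258 and 2492 to 13.9 and 14.1 and *Zim1* from 21.2 and 24.0 to 2.61 and 1.57, while *Usp29* stays between 68.6 and 119.7.

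Levels of different genes were compared per exonic length, as RPKM, the count scaled by exonic length and by the library's total count, computed from the deposited counts. In WT the order was *Peg3* at 3.70 ± 0.305, *Usp29* at 0.61 ± 0.0835 and *Zim1* at 0.129 ± 0.0127 RPKM (SD, n = 2). These levels were further apart than the spread of their libraries, and stood above 66.6%, 47.0% and 29.1% of the genes with any count. In the KO-labelled libraries *Usp29* came first at 0.852 ± 0.135, ahead of *Peg3* at 0.0219 ± 0.000089 and *Zim1* at 0.012 ± 0.00437 RPKM. There *Peg3* stood above 13.7% of the genes with any count. With the length of its longest transcript in place of all exons, *Peg3* was at 5.67 in WT and 0.0335 RPKM in the KO-labelled libraries, and the order was the same. The order of *Peg3* and *Zim1* there rests on 34 and 5 counts in all. None of the 3 genes overlaps another annotated gene on either strand, and none of their exonic bases lies in a run of 75 bases, the read length, with an exact second copy in mm9.

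**Figure D2:**
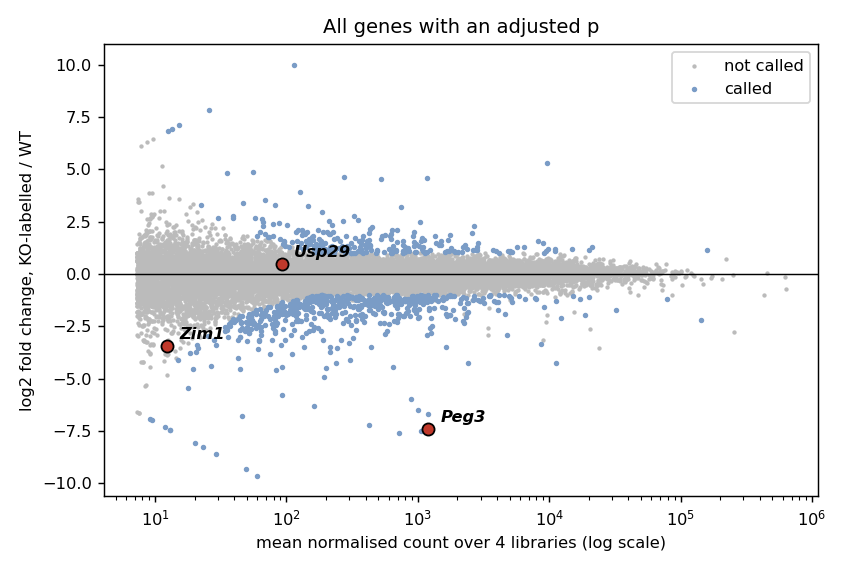
Log2 fold change (KO-labelled over WT) against the mean normalised count (log axis) for the 17710 genes with an adjusted p, with called genes in blue and the 3 genes of the domain in red. *Peg3*, at -7.41, lies far below the body of points, *Zim1*, at -3.45, lies among low genes with a wide spread, and *Usp29*, at 0.48, lies within the body of genes that were not called.

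The genes around the domain were examined to see how far the difference reached along the chromosome. Within 1 Mb of the outer ends of the 3 genes, 59 other genes were annotated, 25 had a count and 18 were tested. Genes of olfactory and vomeronasal receptors, which sensory neurons express, were among those with no count. Of the 18, 2 were called lower and 1 higher (16.7%, against 4.51% of all genes), and 12 had positive and 6 negative fold changes. Their median log2 fold change was 0.19, against 0.00 for all genes tested and 0.09 for all tested genes of chromosome 7. On the *Zim1* side, 11 tested genes had fold changes from -1.12 to 0.85, and on the *Usp29* side, 7 ran from -0.51 to 2.53. Values as low as those of *Peg3* and *Zim1* were not found among these neighbours. The genes called lower were *Zfp444*, a zinc finger gene, and *Gm6792*. *Zfp444* had 735 and 811 counts in WT and 494 and 585 in the KO-labelled libraries, a log2 fold change of -1.06 ± 0.14 (SE, DESeq2 adjusted p = 4.76e-12). *Gm6792* had 568 and 790 counts in WT and 498 and 398 in the KO-labelled libraries, a log2 fold change of -1.12 ± 0.18 (SE). Both are close to the 2-fold threshold, and 1 neighbour in place of 2 was called lower without WT replicate 1, WT replicate 2 or KO-labelled replicate 2. *Zfp418*, at -0.51 ± 0.15 (SE), passed at 0.05 with an adjusted p of 0.00437 in DESeq2.

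*Aurkc*, which encodes an aurora kinase of meiosis, follows *Usp29* after 31.7 kb (chr7:6948154-6955656, plus strand). Its 45 and 59 counts in WT stood against 391 and 480 in the KO-labelled libraries, a log2 fold change of 2.53 ± 0.27 (SE, DESeq2 adjusted p = 9.47e-20). The KO-labelled libraries were thus well above WT, opposite to *Peg3*. This count is uncertain. Of the 948 exonic bases of *Aurkc*, 69.1% lie in runs of 75 bases with an exact copy in *Gm12463*, an annotated pseudogene on chromosome 4 (chr4:44765149-44765997). *Gm12463* had 4 and 2 counts in WT and 132 and 128 in the KO-labelled libraries, a log2 fold change of 4.89 ± 0.73 (SE), and was named after its values were seen. Reads from shared runs of these genes cannot be told apart in a table of gene counts. Of the other genes known from the domain, *Zim2*, *Zim3*, *Zfp264* and the antisense RNA *Apeg3* were not analysed here, since GENCODE vM1 holds no gene under these names.

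**Figure D3:**
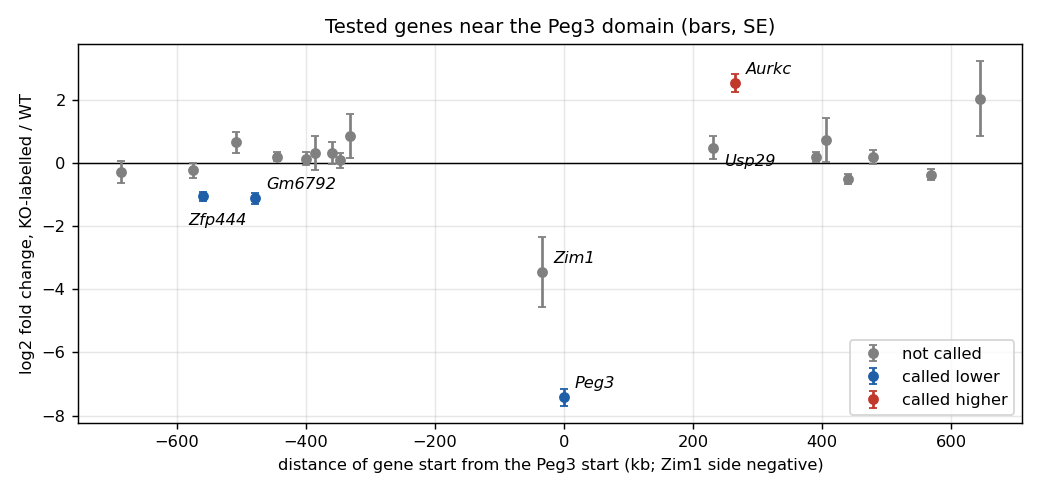
Log2 fold change (KO-labelled over WT, bars SE) of the 21 tested genes in the domain and within 1 Mb of it, against the distance of each gene start from the *Peg3* start in kb. *Peg3* (-7.41) and *Zim1* (-3.45) stand below all neighbours, *Aurkc* (2.53) is the one gene called higher, and *Usp29* (0.48) lies among genes that were not called.

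Factors that keep imprints, add or oxidise DNA methylation, or act at the domain were compared as 1 list of 17 genes, of which 16 were tested. It is named the imprint maintenance list below, although its members differ in function. At an adjusted p under 0.05, 8 were higher and 3 lower, against 16.4% and 15.8% of all genes. Called was 1 of 16 (6.25%), near the 4.51% of all genes. *Yy1*, whose letters recur in the *Peg3* intron, had 2531 and 3757 counts in WT and 3907 and 4377 in the KO-labelled libraries, with a log2 fold change of -0.13 ± 0.10 (SE, DESeq2 adjusted p = 0.378). *Zfp57* and *Trim28*, the zinc finger protein and its partner that hold imprint methylation, rose by 0.21 and 0.26 on the log2 scale (DESeq2 adjusted p = 0.0106 and 0.0129). *Zfp445*, a second such factor, rose by 0.22. The maintenance methyltransferase *Dnmt1* and its cofactor *Uhrf1* rose by 0.33 and 0.21, and *Setdb1*, an H3K9 methyltransferase, by 0.53. The called gene was *Dnmt3l*, the cofactor of new methylation, which fell by 1.28 on the log2 scale (12406 and 14324 counts in WT, 7431 and 8569 in the KO-labelled libraries). *Dnmt3b*, a methyltransferase of new sites, fell by 0.79, and *Dppa3*, which protects maternal methylation, fell by 0.55. *Tet2*, which oxidises methylated cytosine, rose by 0.61. Of these changes, that of *Dnmt3l* alone reached 2-fold, and the fold changes of the tested factors ran from -1.28 to 0.61.

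Genes tied to the function of *Peg3* and *Usp29* had fold changes under 2-fold. Of 15 listed partners and targets, all tested, 5 were higher and 3 lower at an adjusted p under 0.05, against 16.4% and 15.8% of all genes. None was called by DESeq2 or edgeR, against 4.51% of all genes. In DESeq2 9 of the 15 had an unadjusted p under 0.05, against 39.6% of all genes tested, and the values ran from -0.61 to 0.61. *Siah1a* and *Traf2*, whose proteins bind Peg3, had log2 fold changes of 0.10 and -0.19 (DESeq2 adjusted p = 0.53 and 0.27). *Bax*, a cell death gene whose protein Peg3 is known to act on, rose by 0.28. *Trp53*, which encodes p53, a known substrate of Usp29, had a value of 0.08 (adjusted p = 0.444 in DESeq2), and its targets *Cdkn1a* and *Mdm2* fell by 0.61 and 0.36.

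Among other imprinted genes, 11 of 23 tested paternally expressed genes were called (47.8%), 8 lower and 3 higher, with a median log2 fold change of -0.83. Of 22 tested maternally expressed genes, 8 were called (36.4%), all lower, with a median of -0.48. The background was 4.51%, and these lists were written with the changes of imprinted genes in these libraries known, so they are no independent evidence. *Peg3* was below every tested gene of these lists. *Peg10*, a retrotransposon-derived gene, fell by 6.48, with 1366 and 1991 counts in WT and 26 and 28 in the KO-labelled libraries. *Plagl1*, a zinc finger growth regulator, had 57 and 98 counts in WT and 2 and 0 in the KO-labelled libraries. *Mest* fell by 4.09. Those called higher were *Mcts2*, *Zrsr1* and *Zdbf2*, at 2.12, 1.24 and 1.13. On the maternal side, *H19*, a noncoding RNA on distal chromosome 7, fell by 7.19, *Grb10*, an adaptor that restrains insulin signalling, fell by 4.23, and *Mirg*, a noncoding RNA that hosts microRNAs, fell by 2.13.

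**Figure D4:**
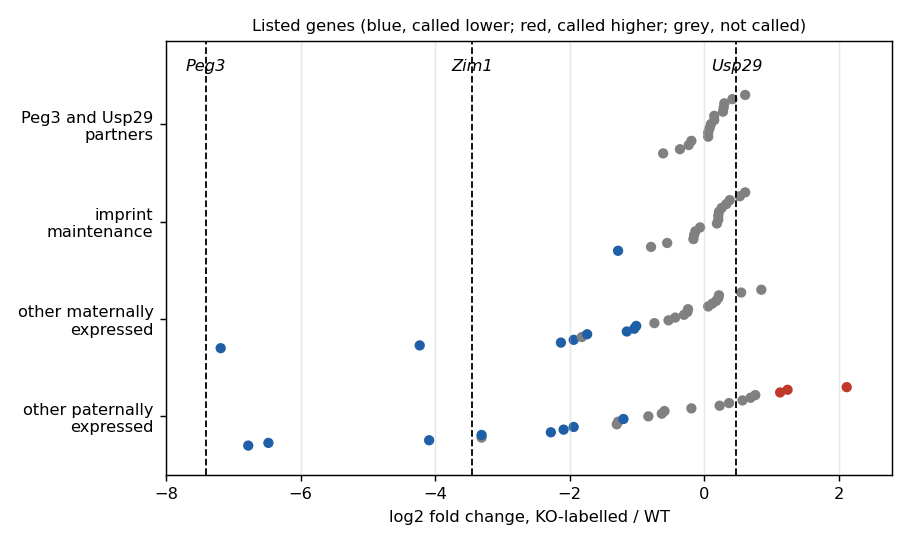
Log2 fold changes (KO-labelled over WT) of the tested genes in 4 lists, 1 point a gene, with blue for called lower, red for called higher and grey for not called, and dashed lines for the 3 genes of the domain. *H19*, *Plagl1* and *Peg10* come nearest to the line of *Peg3*, while no point of the partner list or of the imprint maintenance list lies below -1.28.

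The genes whose pattern over the 4 libraries lay nearest to that of *Peg3* were found among 13306 genes with a mean of at least 50. Nearness was the Euclidean distance between log2 profiles centred on their own means, which here reflects mostly the size of the difference between groups. *Olig1*, a neural transcription factor gene on chromosome 16, came first at a distance of 0.175, with 1076 and 1303 counts in WT and 8 and 10 in the KO-labelled libraries. *Dynlt1b* on chromosome 17 followed at 0.403, although 74.2% of its exonic bases have an exact copy elsewhere. *Bckdhb* on chromosome 9, *H19* and *Olig2*, next to *Olig1*, were at 0.694, 0.725 and 0.736. For *Usp29* the nearest genes were *Ipo11*, *Pold4*, *Mc5r*, *Ndufaf3* and *Hddc3*, at distances from 0.0391 to 0.0727. Their fold changes ran from 0.42 to 0.54 on the log2 scale, none was called, and *Ndufaf3* alone passed at 0.05. *Zim1* was too low for this search.

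Of the markers of other cell types, the trophoblast and primitive endoderm lists were low and lower in the KO-labelled libraries. Trophoblast markers (5 genes) summed to 20.3 to 20.7 CPM in WT and 7.95 to 8.33 in the KO-labelled libraries. Of 4 tested, 3 were lower at 0.05 and *Gata3* was called lower, at -2.73. *Elf5*, a defining trophoblast gene, had 4 counts in each WT library and 0 in the KO-labelled ones. Primitive endoderm markers (5 genes) summed to 10.04 to 11.3 and 4.59 to 5.68. Of 4 tested, *Gata4* and *Sox7* were lower at 0.05 and *Sox7* was called lower, while *Gata6* and *Dab2* did not pass. Fibroblast or feeder markers (7 genes) summed to 6.38 to 7.07 and 10.7 to 11.7, a rise carried by *Thy1*, which was called higher. The other 6 summed to 3.954 to 4.198 in WT and 3.198 to 3.271 in the KO-labelled libraries, *Acta2* and *Twist1* among them were lower at 0.05, and the median log2 fold change of the list was -0.25. The neural list (3 genes) summed to 189 to 190 CPM in WT and 171 to 176 in the KO-labelled libraries, most of it *Tubb3*. Its log2 fold change was -0.05 (DESeq2 adjusted p = 0.67), that of *Nes* was -0.28 (adjusted p = 0.122), and *Pax6* was called lower, at -2.33. Their part in the values of *Peg3* and *Zim1* was not tested.

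The values of the 3 genes were recomputed with other scaling factors, filters and tools, with the replicate number as a block and without each library in turn. *Peg3* stayed between -7.47 and -7.33 and was called in each fit. *Zim1* ran from -3.84 to -3.11 and *Usp29* from 0.30 to 0.65, and neither was called in any fit that gave it an adjusted p. With 1 library left out, the lone library of its group is assumed to vary like the others.

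**Figure D5:**
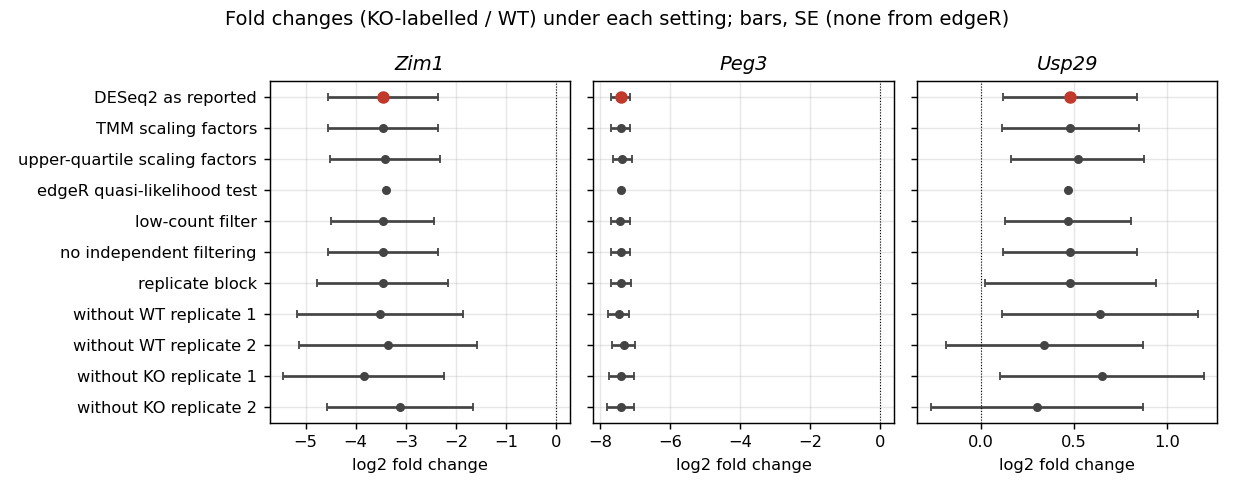
Log2 fold changes (KO-labelled over WT) of *Zim1*, *Peg3* and *Usp29* under the reported fit (red) and 10 other settings (dark grey), with bars for SE, which edgeR does not give. The points of *Peg3* run from -7.47 to -7.33, and the bars of *Zim1* and *Usp29* are wider when a library is left out.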

How the data were processed

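RNA had been sequenced from 4 libraries, 2 of the WT line and 2 of clone 2 of the *Spen* KO line. Per the study's methods, ribosomal RNA was removed, libraries were stranded, and paired 75-base reads were mapped to mm9 with STAR and assigned to GENCODE vM1 genes with featureCounts. Tool versions, the strand setting and the handling of multiply matching reads were not given in the sources used here. The authors deposited raw read counts per gene, without normalization. Columns were matched to samples by name.

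Here, DESeq2 1.42.0 (R 4.3.3) was fitted to all genes with group as the only term, with Benjamini-Hochberg adjustment over 17710 genes. Genes that changed at least 2-fold with an adjusted p under 0.001 were called, the tool and thresholds of the study's methods. Normalised counts are counts divided by DESeq2 size factors, and RPKM used the union of exons. edgeR 4.0.16 was an alternative. Both tools were tested on simulated counts. Positions, sequence and exonic lengths came from GENCODE vM1 and NCBIM37 (mm9), which matched all 37310 identifiers, and promoter windows from RefSeq (GRCm38.p6). Intervals and floors cover counting error only. The 3 genes and all lists were chosen with earlier results of these data known. The text names the 3 genes, called neighbours, in each list no more than 3 called genes a direction, the 5 nearest profiles and *Spen*. Other listed genes were named for their role, and *Zfp418* and *Gm12463* were named outside these rules. Protein features were not analysed here.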

Additional observations from a re-analysis of the deposited data

How the results depend on the processing

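The fold changes of *Peg3*, *Usp29*, *Zim1* and *Aurkc* kept their direction under each alternative, and *Peg3* and *Aurkc* were called in each. The size of *Zim1* rests on 5 counts in the KO-labelled libraries. Its adjusted p ran from 0.00119 (edgeR) to 0.0108 (no independent filtering) over the fits that gave one. DESeq2 gave none with the replicate block (unadjusted p = 0.00803) or without single libraries (0.0169 to 0.0595). Exonic length from the longest transcript moved *Peg3* to 5.67 RPKM in WT and 0.0335 in the KO-labelled libraries. Counts over all genes moved most with the threshold, to 371 higher and 852 lower at an adjusted p under 0.05 with the 2-fold minimum, and to 1499 and 1571 with no fold minimum, as each threshold's construction sets. Without single libraries they ran from 137 to 185 higher and from 332 to 404 lower, with fewer samples. Likewise, from 1 to 2 genes near the domain were called lower.

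Replicate numbers did not act as pairs: over 13306 genes, libraries with the same number deviated from their groups with a correlation of -0.018. In the fit with a replicate block, *Peg3*, *Usp29* and *Zim1* were at -7.41, 0.48 and -3.46, and 192 genes were higher and 457 lower. Under the scaling, filter, tool, block and left-out-library settings, counts of called genes in the 4 lists stayed within 1.5 times their reported values. The 2 other thresholds were tried on the lists after the data had been seen. With an adjusted p under 0.001 and no fold minimum, 6 imprint maintenance genes in place of 1 and 5 partner genes in place of 0 passed, and the other list counts under these thresholds stayed within 1.5 times.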
